A study of Mus musculus with 6 samples.

Results

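Marrow cells from ASXL1-MT mice with a disease resembling myelodysplastic syndrome were compared with cells from mock mice for the genes that make itaconate and nitric oxide and that take up and use arginine. The 8 genes, Acod1, Nos2, Arg1, Arg2, Slc7a2, Ass1, Odc1 and Gch1, were taken by symbol, as every probe set for which the platform annotation lists exactly 1 symbol and that symbol is among them. This gave 15 of 45037 probe sets and 8 of 18193 genes, and all 15 entered the fit, since no filter on low values was used. The set was chosen by symbol, but with the ASXL1-MT minus mock differences in these same centred signals already known, so their differences are given as descriptions, without a test.

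Expression was measured on 6 Affymetrix mouse arrays. The ASXL1-MT group (3 arrays, replicates 1 to 3) came from mice labelled as ASXL1-MT-transplanted. The mock group (3 arrays, replicates 1 to 3) came from mock-transplanted mice labelled as normal controls. Titles of both groups carry the prefix BMT. The series text gives depletion of cells bearing CD3e, B220 and TER-119 for both groups, the sample labels name it for mock only, and they call what is left myeloid marrow cells. Strain, age, the promoter driving ASXL1-MT and the interval after transplantation are not given in the labels, nor is whether a sample is a single mouse or a pool, so the standard errors and p-values cover only how far these samples lie apart, and that can be technical. In bulk RNA, fewer cells of a type and less RNA per cell cannot be told apart.

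The deposited values are log signals, taken here as log2, in which each probe set was centred on its median over the 6 arrays. A value of 0 therefore marks the middle of a row, the absolute level is lost, levels cannot be compared between genes, and folds hold only if the base is 2. Rounding kept a trace of brightness. Logs of 8 or more, that is signals of 256 or more, lie on a coarser step than smaller logs. A probe set is called bright where its 3 highest arrays lie on that step, and an array off that step relative to the brightest array of its row had a signal below 256. Bright probe sets had a median within-group SD of 0.18 and the other probe sets 0.81, and 38.2% of all probe sets and 7 of the 15 described here were bright.

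Acod1 converts cis-aconitate of the citrate cycle to itaconate in mitochondria of activated myeloid cells, and itaconate slows succinate dehydrogenase. Arginine feeds competing enzymes. Nos2 oxidises it to nitric oxide and citrulline with the cofactor tetrahydrobiopterin, whose synthesis starts with Gch1, and arginases split it to urea and ornithine, which Odc1 decarboxylates to the polyamine putrescine. Slc7a2 carries arginine into the cell, and Ass1 takes part in remaking it from citrulline. In macrophages Nos2 is a classical marker of activation by interferon gamma and bacterial products and Arg1 of activation by interleukin 4, and neutrophils and suppressive myeloid cells use arginases too.

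The 250 bases before the start site are shown for the 3 genes that had a bright probe set and an entry in the RefSeq promoter table (build GRCm38.p6), printed 5′ to 3′ on the gene's strand, because the gene that differed most and 2 that differed little can be read side by side. Arg2 has no entry in that table. Capitals mark TATAAA on either strand, the only motif found in these 3 promoters.
Acod1 (chr14:103046762-103047011, plus strand): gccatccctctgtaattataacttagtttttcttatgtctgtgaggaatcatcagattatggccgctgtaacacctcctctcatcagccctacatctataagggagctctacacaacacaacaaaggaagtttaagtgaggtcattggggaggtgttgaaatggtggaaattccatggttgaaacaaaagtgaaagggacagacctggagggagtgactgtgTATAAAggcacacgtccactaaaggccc
Gch1 (chr14:47189414-47189663, minus strand): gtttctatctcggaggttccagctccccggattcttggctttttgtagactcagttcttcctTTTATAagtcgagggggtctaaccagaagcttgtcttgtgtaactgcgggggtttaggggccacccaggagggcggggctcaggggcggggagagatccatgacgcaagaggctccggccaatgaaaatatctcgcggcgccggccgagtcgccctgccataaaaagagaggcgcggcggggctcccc
Odc1 (chr12:17544623-17544872, plus strand): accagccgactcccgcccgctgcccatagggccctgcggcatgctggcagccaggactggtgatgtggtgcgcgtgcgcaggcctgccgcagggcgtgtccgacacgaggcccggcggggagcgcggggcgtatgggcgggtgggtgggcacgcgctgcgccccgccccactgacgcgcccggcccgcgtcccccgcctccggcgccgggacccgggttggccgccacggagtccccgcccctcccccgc

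TATAAA lay 28 to 23 bases before the Acod1 start on the gene's strand. In Gch1 it lay 188 to 183 bases before the start on the opposite strand, and Odc1 had none. Of 32851 promoter windows, each 300 bases long and reaching 50 bases past the start, 13.6% held TATAAA. The GC content of the Acod1 window was 47.0%, against 60.3% in Gch1, 78.0% in Odc1 and a median of 52.7%. TTCNNNGAA (STAT), CACGTG (MYC), TTGCNNAA (C/EBP) and TGANNNNGC (NRF2 core) were searched on both strands as well and were not found in these 3 windows. TTCNNNGAA occurred in 8.3% of windows, CACGTG in 7.15%, TTGCNNAA in 10.8% and TGANNNNGC in 41.3%. An IRF motif, found in 3.44% of windows, and 2 forms of the NF-kB motif, found in 0.155% and 0.0883%, were not found in these 3 either. The Ass1 window, at 74.0% GC, held CACGTG, 36 to 31 bases before the start. Motif matches are a description of these letters and say nothing about binding.

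Acod1 and Arg2 were far lower in ASXL1-MT marrow, and none of the other 6 genes passed the threshold used over all genes. Over all probe sets, 8.1% passed an adjusted p of 0.05 in limma's test, 3.37% as lower in ASXL1-MT and 4.73% as higher. Of the 15 described here, 3 passed as lower and 0 as higher, and the counts at an unadjusted p under 0.05 by limma were 3 and 0 too. By gene, 2 of 8 passed as lower and 0 as higher, where 11.4% of all genes passed, 4.75% as lower and 6.63% as higher. Since the choice of genes used this contrast, nothing is read from these counts. Groups did not overlap in 4 of the 15 probe sets, 3 on the lower side and 1 on the higher side, and in 35.4% of all probe sets, 13.7% on the lower and 21.7% on the higher side. By gene they did not overlap in 2 of 8, both lower, and in 37.9% of all genes, 14.4% lower and 23.5% higher. The median difference of the 8 genes was -0.68 and that of all genes 0.11.

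**Figure D1:**
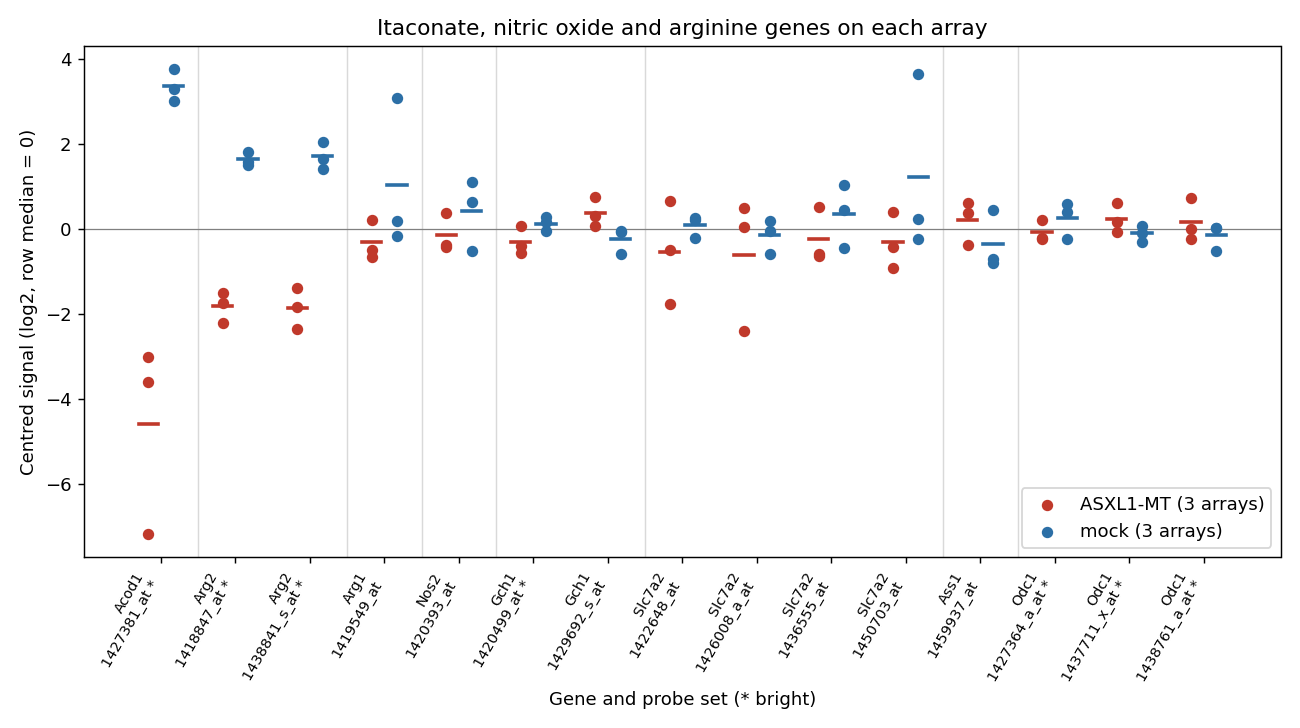
Centred log2 signal (y axis) of the 15 probe sets (x axis, by gene; an asterisk marks a bright probe set) on 3 ASXL1-MT arrays (red, left) and 3 mock arrays (blue, right), with horizontal bars at group means. Acod1 lies between -7.16 and -3.0 on ASXL1-MT arrays and between 3.00 and 3.75 on mock arrays, the Arg2 probe sets separate the groups as well, and Arg1 and 1 Slc7a2 probe set have a single high mock array.

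Acod1, the itaconate-making enzyme, was represented by 1 bright probe set, 1427381_at. Its centred log2 signal was -3.0, -3.59 and -7.16 on ASXL1-MT replicates 1, 2 and 3, against 3.00, 3.75 and 3.29 on mock replicates 1, 2 and 3. All ASXL1-MT arrays were below all mock arrays, and ASXL1-MT replicate 3 was by far the lowest. On 2 of the 3 ASXL1-MT arrays the signal was below 256, and on 0 of the mock arrays was it shown to be. The means were -4.58 ± 2.25 in ASXL1-MT and 3.35 ± 0.38 in mock (SD, n = 3 each), a difference of -7.93 (SE 1.15), which is 244-fold lower if the base is 2. No other probe set of the 45037 had a lower difference, but 0.00444% had a larger one in size, on the higher side. No other of the 18193 genes had a difference of that size in either direction, though on bright probe sets alone 1 of 9424 genes did. The size of the difference rests partly on signals below 256. Without ASXL1-MT replicate 3 the difference was -6.64 and ranked 4th from the lowest among genes, and without mock replicate 2 it was -7.73 and ranked 2nd. With each array left out in turn, the difference lay between -8.72 and -6.64, and Acod1 passed the threshold over all genes in 2 of 6 fits.

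Arg2, the mitochondrial arginase, was measured by 2 bright probe sets that moved alike. Probe set 1418847_at had centred values of -1.74, -1.50 and -2.22 on the ASXL1-MT arrays, against 1.81, 1.58 and 1.50 on the mock arrays. Its difference was -3.45 (SE 0.24), 10.9-fold lower. Probe set 1438841_s_at had -1.84, -1.40 and -2.35 on the ASXL1-MT arrays, against 2.05, 1.40 and 1.65 on the mock arrays. Its difference was -3.56 (SE 0.32), 11.8-fold lower. The groups lay far apart in both probe sets, and ASXL1-MT replicate 3 was the lowest array in each. As a gene, Arg2 averaged -1.84 ± 0.42 in ASXL1-MT and 1.66 ± 0.24 in mock (SD, n = 3 each), a difference of -3.51 (SE 0.27) that was 57th from the lowest of all genes. With each array left out in turn, the difference lay between -3.70 and -3.28, and the gene passed in 6 of 6 fits. Of its probe sets, 1418847_at passed in 5 of these fits and 1438841_s_at in 2.

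Arg1, the cytosolic arginase, did not pass as Arg2 did, and its signals below 256 cannot show whether it moved with Arg2. Its single probe set, 1419549_at, was not bright and had -0.66, -0.50 and 0.21 on the ASXL1-MT arrays, against -0.18, 3.07 and 0.18 on the mock arrays. The groups overlapped, and mock replicate 2 alone was high. Signals were below 256 on all 3 ASXL1-MT arrays and on 2 mock arrays. The difference of -1.34 (SE 0.93) did not pass and was -0.31 without mock replicate 2. The list of 6 markers of B cells, which B220 depletion is meant to remove, averaged -0.06, -0.23 and -0.27 on the ASXL1-MT arrays, against -0.23, 0.88 and -0.25 on the mock arrays, and so was highest on the same array. Only 2 of these markers had a bright probe set, and neither was highest there: Cd79b was -0.42 on mock replicate 2, and Ms4a1 was 0.57 there and 1.62 on mock replicate 1. Among the other marker lists, 2 more cell types were highest on mock replicate 2. The T and NK cell list was 0.39 there and 0.18 on mock replicate 3. The megakaryocyte list was 1.32 and 1.28 on these arrays, and the eosinophil list was 1.97 on both. The part of B cells or of these other cells in the Arg1 value was not tested.

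**Figure D2:**
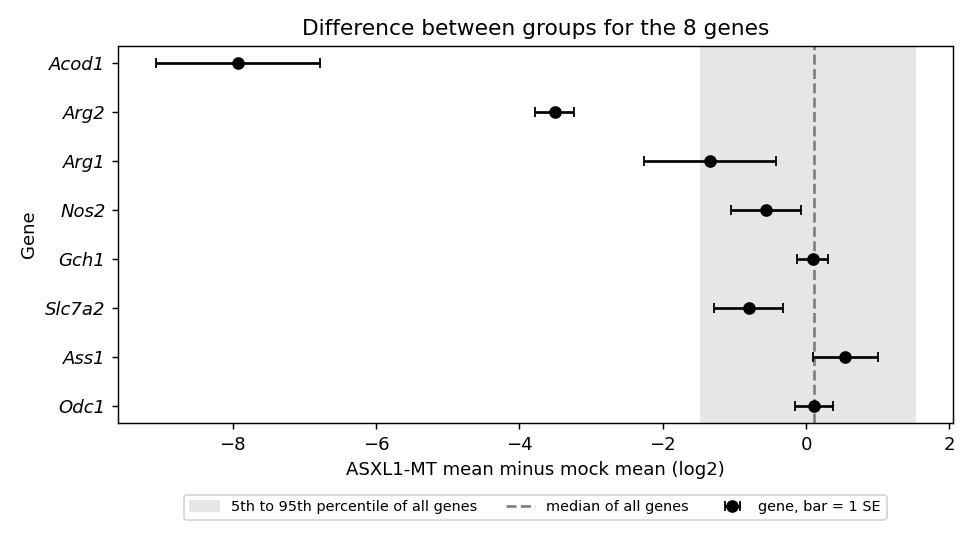
Difference between the ASXL1-MT mean and the mock mean (x axis, log2) of each gene (y axis), with bars of 1 SE. The grey band spans the 5th to 95th percentile of all genes, -1.47 to 1.52, and the dashed line is their median of 0.11. Acod1 at -7.93 and Arg2 at -3.51 lie outside the band, and the other 6 genes lie inside it.

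In the nitric oxide branch, neither the synthase nor the enzyme that starts its cofactor passed the threshold. Nos2, on probe set 1420393_at, had -0.38, 0.38 and -0.43 on the ASXL1-MT arrays, against 1.11, 0.64 and -0.51 on the mock arrays. The groups overlapped fully, the lowest array being mock replicate 3, and the probe set was not bright. Signals were below 256 on 3 ASXL1-MT arrays and 1 mock array. The difference was -0.56 (SE 0.49), and leaving out arrays in turn gave values between -1.02 and -0.21. The probe sets of Gch1 went opposite ways. The bright 1420499_at had 0.06, -0.40 and -0.56 on the ASXL1-MT arrays, against 0.16, 0.27 and -0.06 on the mock arrays, a difference of -0.42 (SE 0.22). The other, 1429692_s_at, had 0.75, 0.06 and 0.30 on the ASXL1-MT arrays, against -0.59, -0.06 and -0.07 on the mock arrays, a difference of 0.61 (SE 0.27) with no overlap between groups. Neither passed, and the mean of both differed by 0.09 (SE 0.21). The direction for Gch1 is therefore not settled, and the mean turned to -0.02 after cyclic loess.

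The arginine supply genes had no bright probe set. Slc7a2, the inducible cationic amino acid carrier, had 4 probe sets, none of them bright, and 2 of these, 1422648_at and 1450703_at, are annotated to the same sequence record. Their differences were -0.62 (1422648_at), -0.47 (1426008_a_at), -0.59 (1436555_at) and -1.53 (1450703_at), all below 0, and groups overlapped in each. The widest, 1450703_at, had -0.92, -0.43 and 0.39 on the ASXL1-MT arrays, against -0.23, 3.64 and 0.23 on the mock arrays. Mock replicate 2 again stood alone, and without it that difference was -0.32. In 1426008_a_at, ASXL1-MT replicate 3 was low at -2.40, against 0.05 and 0.49 on the other ASXL1-MT arrays and -0.60, -0.05 and 0.19 on the mock arrays, and without that array the difference was 0.42. The Slc7a2 mean differed by -0.80 (SE 0.48). Ass1, on probe set 1459937_at, had -0.38, 0.60 and 0.38 on the ASXL1-MT arrays, against -0.70, 0.44 and -0.81 on the mock arrays, with overlap and a difference of 0.55 (SE 0.45). A further probe set lists Ass1 together with another gene and was left out by the rule.

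Odc1, the first and rate-limiting enzyme of polyamine synthesis, had 3 bright probe sets, which did not share a direction. Their within-group SDs were 0.35, 0.28 and 0.42, above the median of 0.18 for bright probe sets. Probe set 1427364_a_at had 0.21, -0.21 and -0.25 on the ASXL1-MT arrays, against -0.24, 0.58 and 0.40 on the mock arrays, a difference of -0.33 (SE 0.28). Probe sets 1437711_x_at and 1438761_a_at differed by 0.35 (SE 0.24) and 0.31 (SE 0.32), and both were highest on ASXL1-MT replicate 1, at 0.61 and 0.73. Groups overlapped in all 3, and none passed. The mean differed by 0.11 (SE 0.26), the same as the median of all genes.

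Patterns most like each gene were sought by the root mean square difference between centred log2 values over the 6 arrays, among all other genes. Nearest to Arg2 were Osgin1 (0.20) and F5, coagulation factor V (0.21), with group differences of -3.45 and -3.53. Nothing lay close to Acod1. Its nearest genes were the carboxylesterase Ces1d (1.04) and the cytokine Tslp (1.42), and Arg2 was the nearest of the other 7 genes at 2.55. Gch1 and Odc1 were nearest to each other among the 8, at 0.13. The measure also follows how little a gene varies, and 605 genes lay within 0.20 of Gch1.

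The wider pathways were taken as 6 lists of 111 genes drawn from textbook pathways, and 100 of these genes had a probe set of their own. In limma's test across all genes 7 of the 100 rose and 9 fell, against the 11.4% of all genes that passed. The lists were chosen with earlier results of these data known, so nothing is read from the counts, in total or by list. The list median was 0.13, against 0.11 for all genes.

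Around itaconate, 1 of 21 genes of the citrate cycle and its carriers rose and 0 fell (4 and 1 at an unadjusted p under 0.05), with a median of 0.30. The gene that rose was Idh3a, the catalytic subunit of NAD-dependent isocitrate dehydrogenase, at 0.73 (SE 0.14, adjusted p = 0.0333 by limma). It was no longer past the threshold after quantile normalization, after cyclic loess or with a robust trend, and its least variable probe set gave 0.38. Among 15 genes of nitric oxide and tetrahydrobiopterin, 2 rose and 0 fell (5 and 1 at an unadjusted p under 0.05), with a median of 0.01. Ddah2, which breaks down methylarginine inhibitors of nitric oxide synthases, was 0.33, 0.74 and 0.73 on the ASXL1-MT arrays, against -0.42, -0.33 and -0.37 on the mock arrays, a difference of 0.97 (SE 0.17, adjusted p = 0.0265 by limma). Qdpr, which recycles the cofactor, was higher by 0.73 (SE 0.13, adjusted p = 0.0305 by limma).

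Among 19 genes of arginine transport and the urea cycle, 0 rose and 0 fell in limma's test (8 and 2 at an unadjusted p under 0.05), with a median of 0.42. The 2 smallest p-values belonged to Slc25a15, the mitochondrial ornithine carrier, at 0.81 (adjusted p = 0.0543 by limma), and Aldh18a1, which makes proline and ornithine precursors, at 0.65 (adjusted p = 0.0901 by limma). Among 14 polyamine genes, 2 rose and 1 fell, with a median of -0.14. Sat1, which acetylates spermidine and spermine for export or breakdown, was -0.32, -0.65 and -0.60 on the ASXL1-MT arrays, against 0.43, 0.32 and 0.50 on the mock arrays, a fall of 0.94 on the log2 scale (SE 0.15, adjusted p = 0.0239 by limma). Mtap, which salvages the methylthioadenosine that polyamine synthesis gives off, was higher by 0.94 (adjusted p = 0.0434 by limma), and lost the call after cyclic loess and with equal array medians. Atp13a2, a lysosomal polyamine exporter, was higher by 0.85 (adjusted p = 0.0204 by limma).

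Of 22 regulators known to act on these genes, 2 rose and 7 fell, with a median of -0.35. Myc, which drives Odc1 transcription, was 0.84, 0.94 and 0.95 on the ASXL1-MT arrays, against -2.41, -1.30 and -0.84 on the mock arrays, higher by 2.43 (SE 0.42, adjusted p = 0.0269 by limma), while Odc1 differed by 0.11. Irf8 was higher by 1.67 (adjusted p = 0.0106 by limma). Lower were Nfe2l2, which encodes NRF2, the sensor-controlled factor that itaconate activates, by a difference of -1.95 (adjusted p = 0.0315 by limma), Hif1a, the oxygen-regulated factor, at -1.55 (adjusted p = 0.0272 by limma), and Tlr4, the endotoxin receptor, at -1.18 (adjusted p = 0.0222 by limma). The Nfe2l2 probe sets differed in size, at -3.62 and -0.29, and the less variable one alone did not pass. Of 9 genes listed for the NRF2 and heme response, 0 rose and 1 fell (0 and 3 at an unadjusted p under 0.05), with a median of -0.20. It was Slc7a11, the cystine importer, at -1.53, -1.29 and -1.21 on the ASXL1-MT arrays, against 2.63, 2.24 and 1.06 on the mock arrays, a difference of -3.32 (SE 0.43, adjusted p = 0.0155 by limma). Neither of its probe sets was bright. With an array left out, Idh3a, Qdpr, Mtap, Atp13a2 and Tlr4 passed in 0 of 6 fits, Ddah2, Sat1, Hif1a and Nfe2l2 in 1, Myc in 2, Slc7a11 in 3 and Irf8 in 5. The differences themselves stayed near the reported ones in the genes that passed in none of these fits, at 0.66 to 0.76 for Idh3a, 0.67 to 0.79 for Qdpr, 0.76 to 1.05 for Mtap, 0.81 to 0.90 for Atp13a2 and -1.32 to -1.09 for Tlr4.

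**Figure D3:**
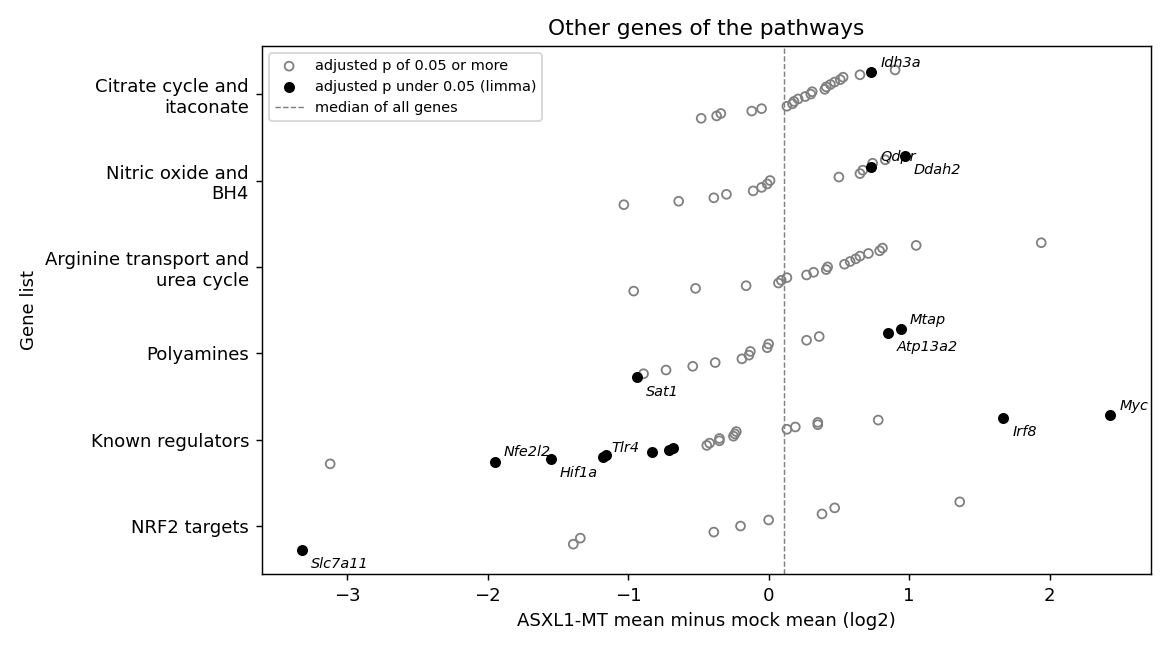
Difference between the ASXL1-MT mean and the mock mean (x axis, log2) of the 100 measured pathway genes, in 6 lists (y axis, spread vertically for legibility). Filled points passed an adjusted p of 0.05 by limma, open points did not, and the dashed line marks the median of all genes, 0.11. Filled points lie on both sides, 7 above 0 and 9 below 0. The list labelled NRF2 targets is that of the NRF2 and heme response.

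Marker lists of cells that the fraction could hold were examined beside Acod1 and Arg2. Over all 11 lists 17 of 83 markers rose and 15 fell, against 6.63% and 4.75% of all genes. These lists were chosen with earlier results of these data known, so nothing is read from the counts, in total or by list. Of 12 neutrophil markers 4 fell and 0 rose (5 and 0 at an unadjusted p under 0.05), with list means of -0.40, -0.24 and -0.30 on the ASXL1-MT arrays, against 0.17, 0.39 and 0.41 on the mock arrays. Those that fell were the gelatinase Mmp9 at -1.87, the chemokine receptor Cxcr2 at -1.65, the collagenase Mmp8 at -1.22 and Elane at -1.06. The other 8, with S100a8, Camp, Ngp and Mpo among them, lay between -0.45 (Ltf) and 0.00 (S100a9). Of 13 monocyte and macrophage markers 1 fell and 1 rose, Vcam1 at -4.33 and Cd163 at 1.57, with list means of -0.24, 0.13 and 0.11 on the ASXL1-MT arrays, against -1.07, 0.10 and -0.05 on the mock arrays. Cd163 was no longer past the threshold with a robust trend (adjusted p = 0.0695 by limma) or in 5 of 6 fits that each left out an array, where its difference lay between 1.37 and 1.91. Of 9 dendritic cell markers 7 rose and 0 fell, and of 7 stem and progenitor markers 4 rose and 1 fell. The dendritic markers that rose were Siglech, Flt3, H2-Aa, H2-Ab1, Cd74, Ciita and Bst2. Xcr1 at 2.27 and Itgax at 0.10 did not pass. Cd34, Flt3, Mecom and Hoxa9 were the stem and progenitor markers that rose, and Meis1 fell. Flt3 is in both lists and Gata2 in the stem and basophil lists, and the 83 markers count neither again. Megakaryocyte markers fell in 4 of 6 cases, basophil and mast cell markers in 2 of 6 and eosinophil markers in 1 of 5, and 0 rose in these 3 lists. Basophil and mast cell markers differed widely in size. Fcer1a, which had no bright probe set, was -7.17, Hdc -2.39, Cpa3 -0.87, Mcpt8 -0.34, Ms4a2 -0.07 and Gata2 0.04. Of 8 T and NK cell markers 2 rose and 1 fell (2 and 2 at an unadjusted p under 0.05). Cd8a at 2.99 and Klrd1 at 2.85 rose, and Nkg7 at -1.18 fell. The Cd3 chains and Cd4 did not pass, with Cd3d at -2.82, Cd3g at -1.38, Cd3e at 0.78 and Cd4 at -0.04. With an array left out, Vcam1 and Cd8a passed in 6 of 6 fits, Mmp9 in 5, Cxcr2 and Mmp8 in 2, Klrd1 in 1 and Nkg7 in 0. Of 6 B cell and 6 erythroid markers 1 each rose and 0 fell, and of 7 stroma and endothelium markers 2 rose and 1 fell. Centring leaves no level, so no marker can be shown to be at 0, but 11 of 12 neutrophil and 8 of 13 monocyte and macrophage markers had a bright probe set. So did 3 of 8 T and NK cell markers (Cd8a, Nkg7 and Klrd1, but none of the Cd3 chains), 2 of 6 B cell markers and 2 of 6 erythroid markers. The part of cell makeup in the Acod1 and Arg2 values was not tested.

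**Figure D4:**
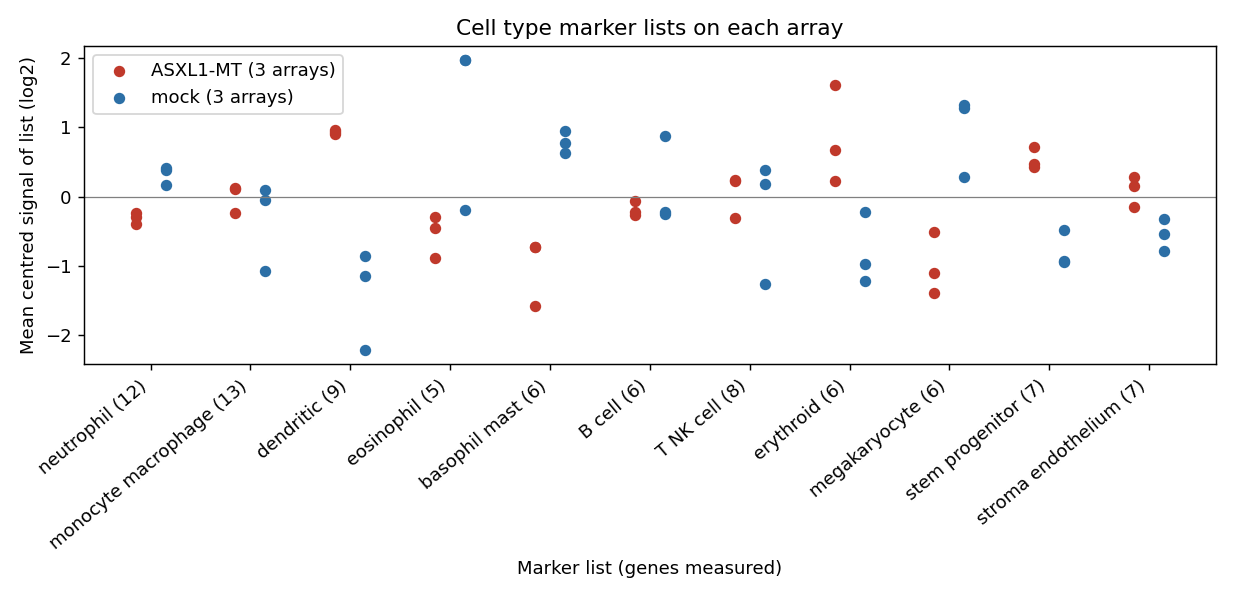
Mean centred log2 signal (y axis) of each marker list (x axis, with the number of genes measured) on 3 ASXL1-MT arrays (red, left) and 3 mock arrays (blue, right). Neutrophil, eosinophil, megakaryocyte and basophil and mast cell lists are lower on all ASXL1-MT arrays than on all mock arrays, dendritic, erythroid, stem and progenitor and stroma lists are higher, and the monocyte and macrophage, B cell and T and NK cell lists overlap. The eosinophil list separates narrowly, at -0.29 on ASXL1-MT replicate 2 and -0.20 on mock replicate 1. A list mean can rest on a few of its genes.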

How the data were processed

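Total RNA of 6 samples, 3 ASXL1-MT and 3 mock, was hybridised to Affymetrix arrays. The submitters' processing notes name MAS5 for the signals. What the authors deposited are logs, treated here as log2 values. Scaling, log base and centring are not given in the sources used here; every row had a median of 0 within 5e-07, so each probe set had been centred. Array medians ran from 0.021 to 0.050 in ASXL1-MT and from -0.053 to -0.028 in mock. The number of arrays limits the precision.

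Groups and replicate numbers came from the sample titles. Symbols came from the platform annotation: 34945 probe sets have exactly 1, 932 have more than 1, and 9160 are unnamed here. Of the 34945, 34741 matched a gene of RefSeq assembly GRCm38.p6 by gene ID, which served for names. Probe sets of a gene were averaged. All 6 arrays entered 1 fit in limma 3.58.1 (lmFit, then eBayes without a trend; R 4.3.3), with Benjamini-Hochberg adjustment across all probe sets, or all genes, and a threshold of 0.05. Brightness used steps of 20 binary places with a tolerance of 1e-07. Alternatives were quantile normalization, cyclic loess, equal array medians, a trend with and without robust estimation, bright probe sets alone, the least variable probe set of each gene (smallest within-group spread), the replicate number as a block, and each array left out.

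The genes and lists were chosen with earlier results of these data known. The rule for naming took every probe set of the 8 genes, the nearest 2 patterns of each, and genes of the lists. From the lists it took up to 5 genes per pathway list and 3 per marker list. These had the largest difference among those past the threshold, or the 2 smallest p where none passed. Not all genes so picked are given in the text, and some in it, such as Srxn1 and Ms4a1, lie outside the rule.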

Additional observations from a re-analysis of the deposited data

How the results depend on the processing

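Under the 3 other scalings, both trend settings, bright probe sets alone and the least variable probe set of each gene, the difference of Acod1 lay between -8.01 and -7.79 and that of Arg2 between -3.66 and -3.45. The trend settings leave a difference as it is and change only its SE. Because the rows are centred, cyclic loess and the trend follow mean centred values, not brightness. These settings therefore cannot show whether a result depends on signal level. Of 108 values of the 8 genes under all alternatives, 106 lay within the within-group SD of the reported value, and the other 2 were Gch1 at -0.42 on bright probe sets alone and when only its least variable probe set was used, since both keep 1420499_at alone. Same-numbered arrays did not deviate together (correlations of -0.052, -0.061 and 0.008 over bright probe sets), so the numbers were not treated as pairs. With the replicate number as a block, which leaves fewer degrees of freedom, limma called 0 probe sets and 0 genes, and so 0 of the 15 probe sets, 0 of the 8 genes, 0 pathway genes and 0 marker genes. At an unadjusted p under 0.05 the block gave 9874 probe sets, 4568 genes, 3, 2, 32 and 41. Of 45037 probe sets 3646 passed, with 5816 under trend and robust settings. On bright probe sets alone 6782 of 17212 passed. Of 18193 genes 2072 passed, with 4132 of 9424 on bright probe sets and 3898 of 18193 when each gene had its least variable probe set. Pathway calls, 16 of 100 as reported, were 39 of 80 and 27 of 100 in those settings. With an array left out, calls ran from 66 to 1142 probe sets, 192 to 1033 genes, 0 to 3 of the 15 probe sets, 1 to 2 of the 8 genes, 0 to 8 pathway genes and 2 to 21 marker genes (32 as reported). The lowest count of probe sets was without ASXL1-MT replicate 3, and the 15 probe sets had 0 calls without mock replicate 2, where 3 had an unadjusted p under 0.05. Higher calls were 58.4% of all called probe sets as deposited and 46.2% to 49.9% under the other scalings, and the median difference of all probe sets was 0.106 as deposited and 0.004 after cyclic loess. Of 36 list genes that the naming rule picked and that passed, the stroma marker Col3a1 turned to -0.57 (1.68 with the mean of its probe sets) on its least variable probe set. The cause of these shifts was not tested. Nos2, Arg1, Slc7a2 and Ass1 had no bright probe set, and each had arrays with signals below 256, which limits them. The brightness mark was not checked against known signals. The neutrophil marker S100a8 also lacked it, with an SE of 0.16, the same as for S100a9, which had it.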

Other observations

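Among the listed genes, 3 were chosen after their values were seen because ASXL1-MT replicate 1 differed from the other two ASXL1-MT arrays. Atf3, a stress-induced transcription factor, was 0.28, -4.53 and -4.17 on ASXL1-MT replicates 1, 2 and 3, against -0.28, 0.49 and 0.74 on the mock arrays, and its difference of -3.12 did not pass (adjusted p = 0.204 by limma). Slc3a2, the heavy chain that several arginine carriers need, was -0.12, -1.09 and -1.21 on the ASXL1-MT arrays, against 0.12, 0.13 and 0.20 on the mock arrays (adjusted p = 0.119 by limma). Smox, the spermine oxidase, was 0.25, -0.95 and -0.86 on the ASXL1-MT arrays, against -0.06, 0.39 and 0.30 on the mock arrays (adjusted p = 0.268 by limma). In these 3 genes ASXL1-MT replicate 1 lay near the mock arrays and the other two lay below them. The pattern was not confined to them. Gp9, a megakaryocyte marker, was -0.04, -4.16 and -3.47 on the ASXL1-MT arrays, against 0.04, 0.5 and 0.46 on the mock arrays. It had no bright probe set, and its difference did not pass (adjusted p = 0.162 by limma). Some listed genes did not follow. Srxn1, which reduces oxidised peroxiredoxins, was -1.58, -0.23 and -0.87 on the ASXL1-MT arrays, against 0.65, 0.35 and 0.33 on the mock arrays. Slc7a11, Acod1 and Arg2 were low on all 3 ASXL1-MT arrays.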
